A study of Mus musculus with 5 samples.

Results

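The transcripts described here encode the argonaute proteins and the proteins that make and use microRNAs. They are the 4 argonaute genes, listed in the deposited tables under their older symbols Eif2c1, Eif2c2, Eif2c3 and Eif2c4 (now Ago1, Ago2, Ago3 and Ago4), with Dicer1, Dgcr8, Xpo5, Tnrc6a, Tnrc6b and Tnrc6c. The rows of the tables with these symbols gave 10 genes of 23284. Eif2c2 was picked because its reads were far lower in EpoR-null embryos, so its difference is given as a description without a test, and the other 9 follow from their place in the same pathway.

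RNA was sequenced from mouse neural tubes, the embryonic epithelium that forms the brain and spinal cord. EpoR is the receptor of erythropoietin (EPO), the hormone that drives red cell formation, and is also found on neural progenitors. The groups were wild type (EpoR +/+, n = 2), heterozygote (EpoR +/-, n = 1) and EpoR-null (EpoR -/-, n = 2), and no embryo was given an agent. The embryos came from matings of EpoR +/- mice. The deletion was carried by the whole embryo, blood and vessels included, and the wild type and heterozygote embryos were the littermate controls. Every library is labelled E8.5, and the study's methods name a slightly later stage. No label says which embryos shared a litter or how many embryos a library held, so the p-values measure the spread between these 5 libraries.

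MicroRNAs are short RNAs that lead a protein complex to messenger RNAs and lower their translation and stability. In the nucleus Drosha and its partner Dgcr8 cut a hairpin out of the primary transcript, Xpo5 (exportin 5) carries the hairpin to the cytoplasm, and Dicer1 cuts it to a short duplex. An argonaute protein keeps 1 strand of the duplex and pairs its seed, bases 2 to 8, with targets. A Tnrc6 protein bound to the argonaute then recruits deadenylases, decapping enzymes and the exonuclease Xrn1. Ago2 differs from the other mouse argonautes in that it cuts well-paired targets itself, and mice without Ago2 or Dicer1 die as embryos. The libraries were made from polyadenylated RNA, so they report the messenger RNAs of this machinery and the host transcripts of microRNAs, and not the mature microRNAs.

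A hairpin that lies inside a member, and those of the hosts Mir17hg and Mcm7, are shown as examples of the substrates of this machinery. Their processing was not measured here. Sequences are from RefSeq (GRCm38.p6), 5′ to 3′, with the seed in capitals. Dgcr8 holds the hairpins of miR-1306 and miR-3618 in exons, which are substrates of the complex that Dgcr8 itself belongs to. Both arms of miR-1306 (chromosome 16, 18284239 to 18284317, minus strand) are shown.
miR-1306-5p: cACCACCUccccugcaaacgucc
miR-1306-3p: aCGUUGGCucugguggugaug
The host Mir17hg (chromosome 14, 115042879 to 115046727, plus strand) carries 6 hairpins in its exons. The arms shown are grouped by seed, miR-17-5p with miR-20a-5p, miR-19a-3p with miR-19b-3p, and miR-18a-5p and miR-92a-3p alone.
miR-17-5p: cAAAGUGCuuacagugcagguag
miR-20a-5p: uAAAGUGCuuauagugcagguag
miR-18a-5p: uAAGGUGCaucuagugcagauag
miR-19a-3p: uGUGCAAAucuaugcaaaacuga
miR-19b-3p: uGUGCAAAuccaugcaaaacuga
miR-92a-3p: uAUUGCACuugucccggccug
Mcm7, a subunit of the replicative helicase (chromosome 5, 138164583 to 138172422, minus strand), hosts a related cluster with the same 2 seeds as miR-17-5p and miR-92a-3p.
miR-93-5p: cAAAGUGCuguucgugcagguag
miR-106b-5p: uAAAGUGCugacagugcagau
miR-25-3p: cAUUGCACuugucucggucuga

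The control libraries held 23014710 to 41169218 reads on genes, and EpoR-null 1 and 2 held 19316126 and 30378879. Levels are given as CPM, the read count scaled to a fixed library size, and 3 reads amount to 0.0729 to 0.155 CPM. Pairs of libraries correlated across tested genes with Spearman's rho of 0.962 to 0.995, and no pair agreed within sampling noise. Epor itself, the targeted gene, was barely covered, with 57 and 68 reads in the wild type, 11 in the heterozygote, and 7 and 19 in EpoR-null 1 and 2. Its log2 fold change was -1.51 (SE 0.76, FDR 0.28), and the heterozygote lay as low as the EpoR-null libraries. The heterozygote also stood apart in tissue makeup. Its 6 primitive blood markers summed to 43.9 CPM against 600 to 1690 in the other 4 libraries, and its 6 endothelial markers to 11.8 against 125 to 275. The 8 neural progenitor markers summed to 1680 to 1910 CPM in the controls and 1440 to 1670 in EpoR-null, and 1 of them (Msi1) was called lower. The 6 markers of newborn neurons summed to 235 to 396 CPM in the controls, to 920 in EpoR-null 1 and to 167 in EpoR-null 2. No marker of these lists was without reads in every library. Counts of calls among the members and in the pathway lists are therefore also given without the heterozygote.

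A gene was called when edgeR's exact test of EpoR-null against the 3 controls gave a p under 0.001 and an FDR (Benjamini-Hochberg over the 12703 genes tested) under 0.05. All 10 members passed the filter on low values. Of the 9 members other than Eif2c2, 3 fell (Eif2c3, Dicer1 and Xpo5) and 0 rose, where 4.77% of all tested genes were called, 3.84% lower and 0.929% higher. On the FDR alone, 5 of the 9 were lower, against 5.49% of all tested genes, and without the heterozygote 1 of the 9, against 1.89%. Both EpoR-null libraries lay below all 3 controls for 7 of the 9, which held for 22.1% of tested genes, and above them for 0 of the 9, which held for 21.2%. The median log2 fold change of the 9 was -0.58, against 0.056 over all tested genes. Without the heterozygote 1 of the 9 was called lower (Dicer1), against 1.89% of all genes then tested. Without wild type 1 the count was 0, against 0.881%, and without EpoR-null 1 it was 6, against 10.2%. In edgeR's quasi-likelihood test without a block 0 of the 9 and 0 of all tested genes were called. An unadjusted p under 0.05 was reached there by 7 of the 9 and by 3052 of the 12703 genes tested. In whole neural tubes, fewer cells of a type and less RNA per cell cannot be told apart.

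**Figure D1:**
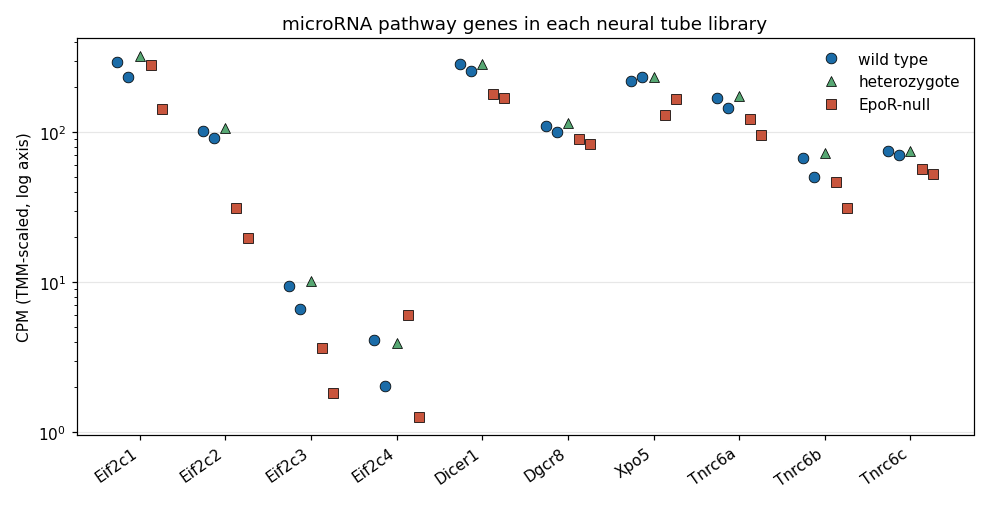
CPM (TMM-scaled, log axis) of the 10 genes in each of the 5 libraries, with wild type as circles, the heterozygote as triangles and EpoR-null as squares. For Eif2c2 the squares sit at 31.4 and 19.8 CPM, well below the 91.9 to 106 CPM of the controls, while for Eif2c1 and Eif2c4 squares and control symbols overlap.

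Eif2c2 (Ago2; GRCm38 chromosome 15, 73095844 to 73184935, minus strand) was read 2482, 3859 and 2459 times in wild type 1, wild type 2 and the heterozygote, and 622 and 563 times in EpoR-null 1 and 2. These counts are 103, 91.9 and 106 CPM in the controls and 31.4 and 19.8 CPM in EpoR-null. The groups stood far apart, the higher EpoR-null library lying at 34.2% of the lowest control. The controls averaged 100.3 ± 7.45 CPM (SD, n = 3) and EpoR-null 25.6 ± 8.20 (n = 2), a log2 fold change of -1.97 (SE 0.23), or 25.5% of the control level. Ranked with the 606 genes called, its log2 fold change was 10th from the lowest. The value ran from -2.34 without EpoR-null 1 to -1.67 without EpoR-null 2. Without the heterozygote it was -1.93.

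Of the other argonautes, 1 of 3 fell, where 3.84% of all tested genes were called lower. Eif2c1 (Ago1; chromosome 4, 126435012 to 126468583, minus strand) had 293, 234 and 323 CPM in the controls and 281 and 142 in EpoR-null. EpoR-null 1 lay within the controls and EpoR-null 2 below them, and the log2 fold change was -0.42 (SE 0.33, FDR 0.52). Without EpoR-null 1 the remaining EpoR-null library gave -0.99.

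Eif2c3 (Ago3; chromosome 4, 126331704 to 126429556, minus strand) was scarce. It had 9.38, 6.60 and 10.1 CPM in the controls and 3.64 and 1.83 in EpoR-null, from 52 to 277 reads a library. The groups did not overlap, and Eif2c3 fell to 31.3% of the control mean (log2 fold change -1.68, SE 0.44, FDR 0.011). The call was lost without wild type 1 (FDR 0.25), without the heterozygote (FDR 0.11) and in the quasi-likelihood test without a block (FDR 0.091). It was also lost with the length and GC offsets described below (FDR 0.12). With a lone EpoR-null library only the log2 fold change of Eif2c3 is given, and not whether the call held. It was -2.24 without EpoR-null 1 and -1.25 without EpoR-null 2.

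Eif2c4 (Ago4; chromosome 4, 126489541 to 126533472, minus strand) was also scarce, with 4.09, 2.03 and 3.93 CPM in the controls and 6.01 and 1.27 in EpoR-null. The EpoR-null libraries were the highest and the lowest of the 5. The log2 fold change was 0.12 (SE 0.73, FDR 0.95) and turned negative without wild type 2 or without EpoR-null 1.

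Eif2c3, Eif2c1 and Eif2c4 lie side by side on the same strand of chromosome 4, with 5455 bases between the first pair and 20957 between the second. Thus genes of 1 cluster had fold changes from -1.68 to 0.12 on the log2 scale. Eif2c2 stands alone on chromosome 15, between Trappc9, a trafficking complex subunit 34639 bases away, and Ptk2, the focal adhesion kinase, 20166 bases away. Trappc9 had 23.1 ± 0.90 CPM (SD, n = 3) in the controls and 25.2 ± 5.02 (n = 2) in EpoR-null, with a log2 fold change of 0.12 (FDR 0.80). Ptk2 had 176 ± 4.56 and 153 ± 1.18 CPM, with a log2 fold change of -0.20 (FDR 0.40). Neither neighbour passed the test.

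Levels of different genes were compared as CPM per kilobase of the longest annotated transcript. In the controls Eif2c1 had 39.2 ± 6.23 CPM per kb (SD, n = 3), Eif2c2 7.27 ± 0.54, Eif2c3 0.558 ± 0.119 and Eif2c4 0.512 ± 0.176. Eif2c3 and Eif2c4 overlapped, and the steps above them did not. Eif2c2 made up 15.1%, 16.7% and 14.4% of the summed argonaute level in the controls, and 5.39% and 6.71% in EpoR-null 1 and 2. The share of Eif2c1 was 82.4 ± 0.95% in the controls and 91.8 ± 0.071% in EpoR-null. The summed level was 49.2, 39.8 and 53.6 CPM per kb in the controls and 42.3 and 21.4 in EpoR-null. The sum therefore overlapped between groups while the share of Eif2c2 did not. Since Eif2c2 was picked for its drop, its share is likewise a description. The share of Eif2c1 is no separate result either, because a lower share of Eif2c2 raises the others in the same sum.

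**Figure D2:**
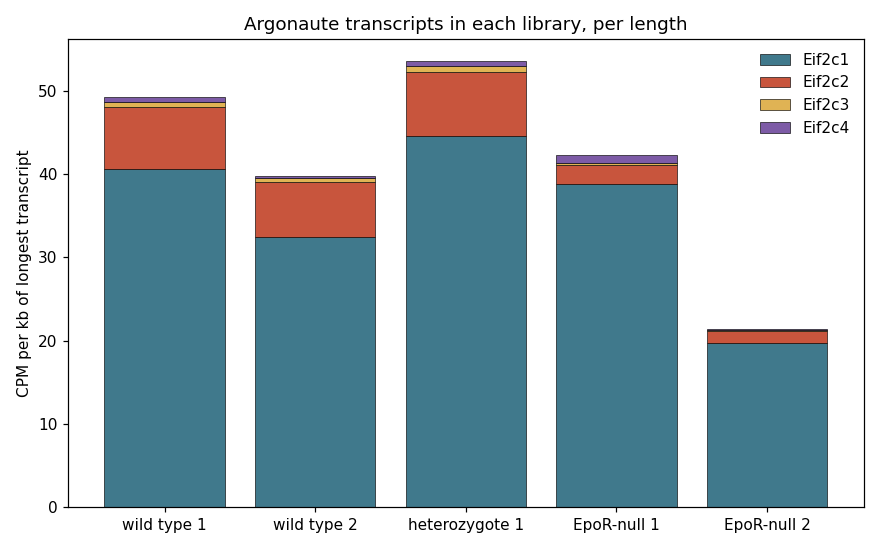
Stacked CPM per kilobase of longest transcript of the 4 argonaute genes in each library (linear axis from 0). Eif2c1 makes up most of every bar, and the Eif2c2 segment shrinks from 14.4 to 16.7% of the bar in the controls to 5.39 and 6.71% in EpoR-null.

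Of the genes that make microRNAs, Dicer1 (chromosome 12, 104687742 to 104751952, minus strand) had 284, 256 and 283 CPM in the controls and 179 and 168 in EpoR-null. The groups did not overlap, the higher EpoR-null library lying at 69.9% of the lowest control. Dicer1 fell to 63.2% of the control mean (log2 fold change -0.66, SE 0.14, FDR 0.00038). The call was lost without wild type 1 (FDR 0.078) and in the quasi-likelihood test without a block (FDR 0.059). It was also lost with the length and GC offsets described below, and held without wild type 2 and without the heterozygote. The log2 fold change of Dicer1 was -0.71 without EpoR-null 1 and -0.62 without EpoR-null 2.

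Xpo5 (chromosome 17, 46202782 to 46243598, plus strand) had 221, 235 and 233 CPM in the controls and 131 and 167 in EpoR-null, again without overlap. It fell to 64.9% of the control mean (log2 fold change -0.62, SE 0.16, FDR 0.0067). It is the only member that was higher in EpoR-null 2 than in EpoR-null 1. Its call was lost without wild type 1 (FDR 0.14), wild type 2 (FDR 0.10) or the heterozygote (FDR 0.084). It was also lost in the quasi-likelihood test without a block (FDR 0.079) and with the length and GC offsets described below (FDR 0.60). With a lone EpoR-null library only the log2 fold change of Xpo5 is given, and not whether the call held. It was -0.46 without EpoR-null 1 and -0.81 without EpoR-null 2.

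Dgcr8 (chromosome 16, 18253948 to 18289246, minus strand) had 110, 101 and 116 CPM in the controls and 90.6 and 83.9 in EpoR-null. The groups did not overlap, but the log2 fold change of -0.32 (SE 0.14, FDR 0.17) did not pass the test. In the controls Xpo5 had 45.2 ± 1.48 CPM per kb (SD, n = 3), Dicer1 27.8 ± 1.66 and Dgcr8 25.2 ± 1.78. Xpo5 overlapped with Eif2c1, and Dicer1 with Dgcr8.

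The Tnrc6 genes encode the scaffold that links an argonaute to messenger RNA decay. Tnrc6a (chromosome 7, 123123885 to 123195296, plus strand) had 170, 144 and 176 CPM in the controls and 122 and 95.9 in EpoR-null. Tnrc6b (chromosome 15, 80711313 to 80941085, plus strand) had 67.3, 50.5 and 72.9 against 46.8 and 31.3. Tnrc6c (chromosome 11, 117654289 to 117763439, plus strand) had 75.2, 70.7 and 74.6 against 56.9 and 52.3. For each of them both EpoR-null libraries lay below every control, and none was called. Tnrc6a (log2 fold change -0.58, SE 0.18, FDR 0.028) and Tnrc6c (-0.43, SE 0.14, FDR 0.038) passed the FDR but not the limit on p, and Tnrc6b (-0.70, SE 0.26, FDR 0.091) passed neither. Per kilobase the 3 together had 30.0 ± 2.95 CPM (SD, n = 3) in the controls and 20.2 ± 3.18 (n = 2) in EpoR-null, Tnrc6a having the highest level of the 3 in every library.

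The members are long transcripts, and length moved with the fold change over the whole transcriptome. All 10 were longer than the median tested transcript of 3495 bases, and 8 were in the longest 2 of 10 equal length groups of tested genes. Across these groups, the median log2 fold change went from 0.44 in the shortest to -0.46 in the longest, and 23.1% of genes in the longest group were called lower against 0.318% in the shortest. Relative to the control mean, the median gene of the longest group stood at -0.31 in EpoR-null 1 and -0.67 in EpoR-null 2 on the log2 scale, and between -0.081 and 0.048 in the controls. The trend was thus carried by both EpoR-null libraries and was steeper in EpoR-null 2, where 9 of the 10 members were lower than in EpoR-null 1, as were 50.8% of tested genes. The part of the length trend in the members' differences is given below, and its cause was not tested.

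**Figure D3:**
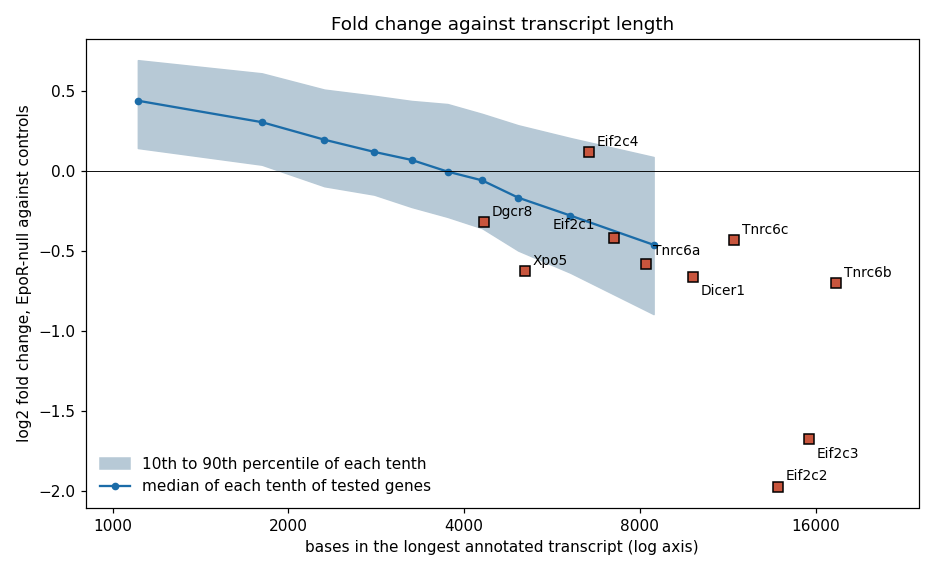
Log2 fold change of EpoR-null against controls (y axis) by bases in the longest annotated transcript (x axis, log), with the line joining the medians of 10 equal groups of tested genes, the band their 10th to 90th percentiles, and squares the 10 members. Eif2c2 and Eif2c3 lie far under the band's end at -0.89, Xpo5 lies under the band at its own length, and most other members lie near the falling median.

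Set against the genes of their length groups, the members differed among themselves. In the longest group of 1255 genes, 5 (0.398%) lay at or below the log2 fold change of Eif2c2, itself included. For Eif2c3 the count was 20 (1.59%), itself included. This group runs from 6963 to 123179 bases with a median of 8444. Eif2c2 has 13800 bases and Eif2c3 15595, so most genes they were set against are shorter. For Dicer1 the share was 26.8%, for Tnrc6b 21.9%, for Tnrc6a 35.2%, for Tnrc6c 53.9% and for Eif2c1 55.2%. For Dgcr8 and Eif2c4, in shorter length groups, it was 12.1% and 86.5%. These 7 genes were therefore not among the lowest 10% of genes of their length group. Xpo5, a shorter transcript of 5081 bases, had 65 of the 1254 genes (5.18%) of its own length group at or below it.

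Offsets that removed each library's trend on length and GC content were then used (likelihood-ratio test of edgeR). With them 0 of the 9 members were called, where 162 of 12560 genes were. An unadjusted p under 0.05 was reached by 2 of the 9 and by 947 of the 12560 genes. The log2 fold change of Eif2c2 became -1.41, that of Eif2c3 -1.04 (FDR 0.12) and that of Xpo5 -0.46 (FDR 0.60). Dicer1 moved to -0.16 (FDR 0.9998), and Tnrc6c turned to 0.10. The median of the 9 was then -0.16, and 7 of them were still negative. Thus Eif2c3, Dicer1 and Xpo5 did not pass the test once the trend was removed.

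**Figure D4:**
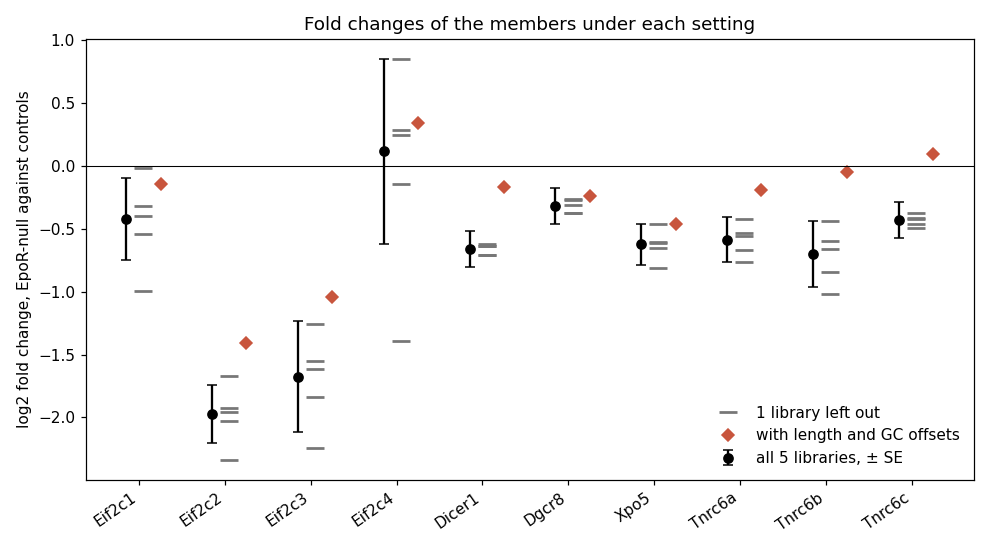
Log2 fold change of EpoR-null against controls for each of the 10 genes, as circles with the SE from all 5 libraries, as dashes with 1 library left out, and as diamonds with length and GC offsets. The diamond of Eif2c2 is at -1.41, up from its circle at -1.97. Those of Dicer1, Tnrc6a and Tnrc6b lie close to 0 and that of Tnrc6c above it.

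Untranslated bases account for much of this length. The longest annotated transcript of Eif2c2 has 13800 bases, of which 2580 code and 81.3% do not. In Eif2c3 83.5% of 15595 bases and in Tnrc6b 68.7% of 17332 bases are untranslated, whereas the share is 42.0% of 9851 bases in Dicer1 and 28.9% in Xpo5. The tables hold 1 count a gene, so reads from the coding and the untranslated bases were not separated here. Few reads of the members could be shared with other genes. Of all 65-base windows, 0.954% of those of Eif2c2, 1.48% of those of Eif2c1 (with Ago3) and 7.12% of those of Dgcr8 occur in another annotated gene, and 0 in Dicer1, Xpo5 and Eif2c4.

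The heterozygote (n = 1) was compared with the wild type (n = 2). Since this library also stood apart in tissue makeup, an effect of 1 lost allele cannot be told apart from that. In edgeR's quasi-likelihood test 0 of 12703 genes passed an FDR of 0.05, and 3.27% had an unadjusted p under 0.05. The members' log2 fold changes were all positive, from 0.030 for Xpo5 to 0.37 for Eif2c4, and the lowest p was 0.38 (FDR 1). Wild type 2 was lower than wild type 1 for 9 of the 10 members. The heterozygote lay between the wild types for Dicer1, Xpo5, Tnrc6c and Eif2c4, and above both for the others. The count over all genes moved with the libraries in the fit, which share 1 estimate of the spread, to 430 without EpoR-null 1, 410 without EpoR-null 2 and 21 without wild type 1.

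The promoters of the members were read as RefSeq windows of 300 bases around each start site (GRCm38.p6), with none at hand for Ago2. Each was searched on both strands for the motif of the transcription factor NRF1, GCGCA followed directly by its reverse complement TGCGC, and for TTCNNNGAA, the motif of STAT factors, which act downstream of EpoR. Xpo5 held the NRF1 motif 2 times, first bases 85 and 62 upstream of the start site, and no other member held it. The stretch at chr17:46202714-46202770 (plus strand) is shown with both matches in capitals.
Xpo5 promoter: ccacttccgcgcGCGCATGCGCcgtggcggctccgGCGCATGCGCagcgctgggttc
Of 32851 mouse windows of this length, 0.971% hold the NRF1 motif. No member's window holds the STAT motif, which is found in 8.30% of windows, so its absence from so few windows is near that share. A match describes the letters only, and occupancy was not measured in these embryos.

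The genes around the members were followed by role in 6 further lists, of which 90 genes were tested. Of these, 7 were called lower (7.78%) and 0 higher, where 3.84% of all tested genes were called lower. Without the heterozygote 2 were called, both lower, where 1.89% of all genes were. All 7 belong to 2 lists, those of decay and of tailing, editing and turnover.

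The nuclear processing and export list showed no call among its 11 tested genes, and its median log2 fold change was -0.082. Ran, the GTPase that powers nuclear export, was its most abundant gene, with 1224 to 1347 CPM in the controls and 1230 and 1883 in EpoR-null (log2 fold change 0.28, FDR 0.51). Xpo1, the general exporter, had the largest fold change of the list, -0.29 (FDR 0.20). The list of Dicer partners and RISC loading factors had no call among 18, with a median of 0.0058. Its most abundant gene, the chaperone Hsp90ab1, had 5490 ± 250 CPM (SD, n = 3) in the controls and 5538 ± 1131 (n = 2) in EpoR-null (log2 fold change 0.013, FDR 0.98). Mov10, a helicase of the silencing complex, had the largest fold change, 0.54 (SE 0.48, FDR 0.56). Over all tested genes 4.77% were called, so a count of 0 in lists of this size is near the background.

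The list of deadenylation, decapping and decay, the steps that Tnrc6 proteins start, had 5 calls among 25 genes, all lower, where 3.84% of all tested genes were called lower, and a median of -0.16. Without the heterozygote 1 of the 25 was called lower, against 1.89% of all genes then tested. Without wild type 1 the count was 0, against 0.881%, so both counts are near the background. In the list 13 genes had both EpoR-null libraries below every control, against 22.1% of all tested genes. Cnot1, the scaffold of the main deadenylase complex, had 497, 474 and 503 CPM in the controls and 331 and 336 in EpoR-null (log2 fold change -0.56, FDR 0.0020). Cnot6, a catalytic subunit of that complex, had 180, 148 and 181 against 111 and 64.3 (-0.95, FDR 0.015). Cnot1 and Cnot6 had no overlap between groups. Dcp2, the decapping enzyme, had 220, 201 and 223 CPM against 134 and 137 (-0.66, FDR 0.00020). Its activator Dcp1a had 81.6, 79.3 and 85.0 against 57.9 and 60.4 (-0.47, FDR 0.013). The helicase Ddx6, which binds the same machinery, had 431, 395 and 414 against 313 and 246 (-0.56, FDR 0.021). Dcp2, Dcp1a and Ddx6 fell to between 63.1% and 72.2% of the control means. Other decapping genes of the list were not called and ranged from 78.0% of the control mean for Patl1 and 88.0% for Edc4 to 101% for Dcp1b and 140% for Lsm1, named here after their values were seen.

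Xrn1, the exonuclease that degrades decapped messenger RNA, had the largest fold change of the list. It had 27.0, 20.4 and 29.2 CPM in the controls and 12.7 and 4.58 in EpoR-null, without overlap. At -1.57 (SE 0.47, FDR 0.032) it passed the FDR but not the limit on p. Pabpc1, the poly(A)-binding protein and the list's most abundant gene, had a log2 fold change of -0.14 (FDR 0.76). With length and GC offsets Cnot6 stood at -0.67 (FDR 0.013) and Xrn1 at -1.13 (FDR 0.051), while Cnot1 (-0.11), Dcp2 (-0.17), Dcp1a (-0.23) and Ddx6 (-0.25) had an FDR above 0.8.

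The list of microRNA tailing, editing and turnover had 2 calls among 16 tested genes, both lower, where 3.84% of all tested genes were called lower, and a median of -0.27. Without the heterozygote 1 of the 16 was called lower, against 1.89% of all genes then tested. Trim71, an RNA-binding ubiquitin ligase of early progenitors that binds argonautes, had 48.0, 50.0 and 51.1 CPM in the controls and 13.7 and 14.8 in EpoR-null (log2 fold change -1.80, SE 0.17, FDR 6.0e-20), and -1.37 with length and GC offsets (FDR 1.8e-06). Zcchc11, which adds uridines to let-7 precursors, had 161, 139 and 159 against 108 and 86.8 (-0.65, FDR 0.0047), and -0.33 with offsets (FDR 0.47). Lin28a, the let-7 inhibitor and the list's most abundant gene, had 324, 408 and 331 CPM in the controls and 150 and 523 in EpoR-null, so its EpoR-null libraries lay on either side of the controls (FDR 0.97).

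**Figure D5:**
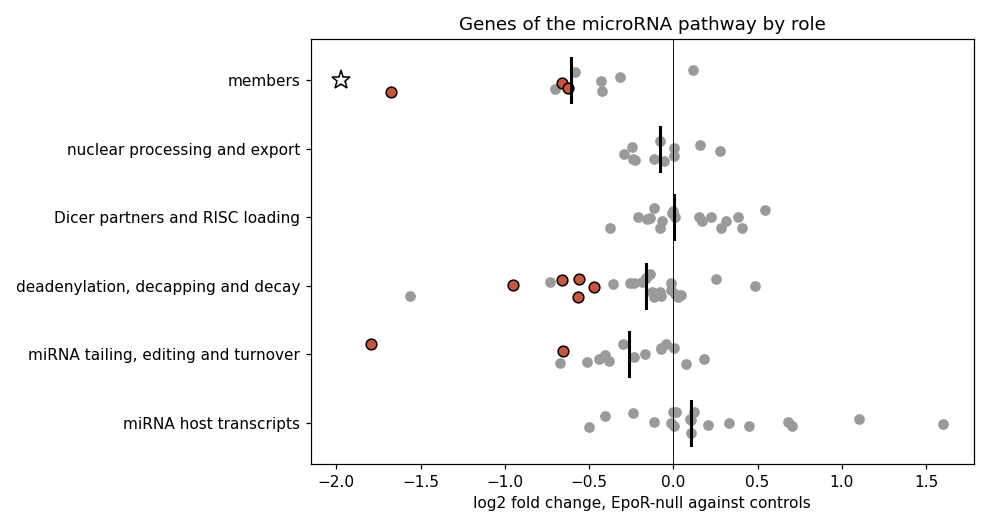
Log2 fold change of EpoR-null against controls (x axis) for each tested gene of the members and of 5 further lists (rows), with called genes as outlined red points, the list median as a bar and Eif2c2, which was not tested, as a star. Called points appear in the rows of the members, of decay (5 genes) and of tailing, editing and turnover (2 genes), all at negative values.

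The PIWI pathway, the germline branch of the argonaute family, was listed beside it. Of its 8 genes 1 passed the filter on low values, Tdrd1, with at most 1.32 CPM in a control and a log2 fold change of -0.013 (FDR 1).

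Among the host transcripts of microRNAs, 20 of 26 listed genes were in the tables and 19 were tested, with 0 calls and a median log2 fold change of 0.10. Mir17hg had 78.8, 55.9 and 79.0 CPM in the controls and 73.0 and 70.7 in EpoR-null (log2 fold change 0.013, SE 0.20, FDR 0.98). Mcm7, the most abundant host, had 638 to 707 CPM in the controls and 613 and 859 in EpoR-null (0.12, FDR 0.78). The hosts of the seeds shown above therefore gave no call. With length and GC offsets 1 host was called, Meg3, which was higher (0.57, FDR 0.013). Without them its log2 fold change was -0.016 (FDR 0.98), and it was singled out after its values were seen. Dnm3os, a mesenchymal host, had the largest value, 1.60 (SE 1.28, FDR 0.52), set by EpoR-null 1 with 8.44 CPM against 0.458 in EpoR-null 2 and 0.216 in the heterozygote.

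The hairpins have rows of their own in the tables, 621 in all, but only 201 had any read, and together they took 620 to 1031 reads a library. The rows of Mir1306 in Dgcr8, Mir5113 in Tnrc6b and Mir693 in Xpo5 had 0 reads in every library. Mir1306 and Mir5113 lie in exons of their hosts in GRCm38, and HTSeq leaves out reads that overlap several genes. The annotation used for counting is not named. Of other hairpins in host exons, Mir25 in Mcm7 took 8 to 71 reads a library and Mir92-1 in Mir17hg took 0. Whether reads were left out at Mir1306 and Mir5113 is thus not known, and their counts set no limit on RNA from these hairpins. For Mir693, in an intron, 0 reads allow at most 0.0729 to 0.155 CPM by counting error alone. Processing of the hairpins cannot be read from these libraries.

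Last, the tested genes whose pattern over the 5 libraries was most like that of Eif2c2 were listed by the Euclidean distance between centred log2 CPM values. They were Hipk2 (distance 0.127), a kinase of the apoptotic response, Ccnt1 (0.198), the cyclin of the elongation factor P-TEFb, Ppp1r12b (0.242), a myosin phosphatase subunit, Elk4 (0.310), a serum response partner factor, and Clcn5 (0.337), a chloride transporter. Hipk2 had 44.9, 41.3 and 48.5 CPM in the controls and 12.8 and 8.45 in EpoR-null, a log2 fold change of -2.09. The other 4 had log2 fold changes of -1.85 to -1.68. Of the 5, Hipk2, Ccnt1, Ppp1r12b and Clcn5 have longest transcripts of 7397 to 8840 bases, and Elk4 has 4433. The likeness rests on 5 libraries and on the same values that picked Eif2c2.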

How the data were processed

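Polyadenylated RNA of 5 mouse neural tube libraries was sequenced by the authors, and the deposited tables hold raw read counts per gene, 1 table a library, not normalized. Per the labels' processing notes, reads were trimmed with Trimmomatic 0.32, aligned with TopHat2 2.1.0 to mm9 and counted with HTSeq 0.6.1. The paper's methods name hg19, and the annotation and strand setting are not given in the sources used here. HTSeq leaves out reads that align to several places or overlap several genes. Its 5 summary lines were kept out of library sizes (reads on no gene were 8.12 to 11.0% and ambiguous reads 1.85 to 2.31% of uniquely aligned reads).

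The 12703 genes over 1 CPM in 2 or more libraries were tested in R 4.3.3 with edgeR 4.0.16, by TMM scaling, estimateDisp and exactTest, EpoR-null against wild type and heterozygote together, with the study's limits (p under 0.001 and FDR under 0.05). The heterozygote was compared with the wild type by the quasi-likelihood test. Alternatives were DESeq2 1.42.0, the quasi-likelihood test with and without a replicate block, RLE or no scaling, other filters, each library left out, and offsets for length and GC content (loess, span 0.5). Classic dispersions were added after seeing the data. SEs come from the negative binomial information. The scripts were tested on simulated data. Coordinates and lengths are GENCODE M21 (GRCm38) matched by symbol (12560 of the tested genes), which is not the files' build, and sequences are RefSeq.

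The members, gene lists and tests were chosen with earlier results of these data known. Named genes were the 10 members, each called gene of the lists with the highest-CPM gene and the largest fold change in each list, the neighbours of Eif2c2, the 5 genes most like it, and Epor.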

Additional observations from a re-analysis of the deposited data

How the results depend on the processing

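The direction of the log2 fold change was kept in all 16 alternatives by 8 of the 10 members. Eif2c4 reversed without wild type 2 (-0.15) and without EpoR-null 1 (-1.39), the highest value being 0.85 without EpoR-null 2, and Tnrc6c with length and GC offsets (0.10) and with those offsets and the replicate block (0.067). Calls depended on the test far more than directions did. Of all genes, 606 were called (488 lower), with 3 of the 9 members other than Eif2c2 and 7 further pathway genes. The quasi-likelihood test of edgeR without a block called 0 genes, 0 members and 0 further pathway genes (3052, 7 and 25 at an unadjusted p under 0.05), with FDRs of 0.059 for Dicer1, 0.079 for Xpo5 and 0.091 for Eif2c3. DESeq2 called 1028 genes (753 lower), 5 members and 11 further genes. Classic dispersions, chosen after seeing the data, called 351 genes (324 lower). With length and GC offsets 162 genes (141 lower), 0 members and 3 further genes were called. Of these 3, Trim71 and Cnot6 were also called without offsets and were lower, and Meg3 was not and was higher. RLE or no scaling and the other filters kept these counts within 1.5 times. Leaving out 1 library gave 115 to 2296 genes, 111 to 1283 lower genes, 0 to 6 members and 1 to 21 further genes, the lowest without wild type 1 and the highest without EpoR-null 1. A lone EpoR-null library was then assumed to vary as the controls do. The log2 fold change of Eif2c2 ran from -2.34 to -1.67 over the libraries left out and was -1.39 with the block and the offsets together.

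Replicate numbers 1 and 2 occur in both genotypes, but no label says what they mark, and 2 pairs do not establish a pairing. The difference of wild type 1 and 2 correlated with that of EpoR-null 1 and 2 at Pearson's r of 0.427 and Spearman's rho of 0.529 across 12703 genes, which are not independent replicates, and at 0.953 and 0.867 across the 10 members. In both genotypes 9 of the 10 members were lower in number 2 than in number 1. With the replicate block, the quasi-likelihood test called 291 genes (266 lower), 4 members and 3 further genes. The 4 members were Eif2c3, Dicer1, Tnrc6a (p 0.00086, FDR 0.042) and Tnrc6b (p 0.00085, FDR 0.042), so Tnrc6a and Tnrc6b gained a call and Xpo5 lost its own (p 0.0022, FDR 0.049). The test called 0 genes, 0 lower genes, 0 members and 0 further genes with the block and the offsets (1207 genes at an unadjusted p under 0.05). Heterozygote against wild type, 0 genes were called, 4 with the block, 40 without a filter and 0 to 430 with 1 library left out. The median control level of the members was 13.6 CPM per kb of the longest transcript and 9.997 per kb of all annotated exons. Depth limits Eif2c3 and Eif2c4, with 36 to 277 reads a library.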
